A study of Homo sapiens with 56 samples.

Results

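The effects of 4-hydroxytamoxifen (4OHT) and fulvestrant (ICI in the labels) on gene expression were compared in PEO1 cells that had received either compound alone, at 1 µM, for 3 h. The comparison rested on 8 arrays, chosen by their titles: 4 titled PEO1 3h 4OHT and 4 titled PEO1 3h ICI, both without estradiol (E2), of 56 arrays in the series. PEO1 is an established line of high-grade serous ovarian cancer. The series held 7 groups of 4 Affymetrix arrays in PEO1 and as many in PEO4, a second line from the same patient. The groups were untreated cells at 0 h, ethanol vehicle, 1 nM E2, each antagonist alone and each antagonist with E2. Every culture had first spent 3 days without hormones, in medium free of phenol red with charcoal-stripped serum, and the drug doses are those of the series description. The labels mark the PEO1 arrays of a group A to D and do not say whether they came from separate cultures. The p-values therefore measure the spread between arrays of a group, pooled over all 28 PEO1 arrays, and this spread may be technical.

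Estrogen receptor alpha, encoded by ESR1, is a hormone-activated transcription factor that raises some genes and lowers others. 4OHT is the active metabolite of tamoxifen, a non-steroidal triphenylethylene that occupies the receptor and acts as an antagonist or a partial agonist depending on the tissue and the gene. Fulvestrant is an estradiol analogue with a long fluorinated side chain on the steroid ring, which blocks the receptor without partial agonism and leads to its degradation. A direct comparison of both therefore asks where a mixed and a pure antagonist give different RNA levels at the same dose and time. 1 pair of compounds was compared.

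The 8 arrays were alike in their overall distributions, with array medians of 7.43 to 7.46 for 4OHT and 7.42 to 7.46 for ICI on the log2 scale. The lowest correlation between 2 arrays of a group, over all genes, was 0.997 with 4OHT and 0.998 with ICI. The 3′ minus 5′ difference of the beta-actin control probe sets, a measure of RNA integrity, ranged from -0.13 to 0.07 with 4OHT and from -0.16 to 0.04 with ICI. Of the Müllerian and ovarian markers, PAX8 had a mean of 10.96 with 4OHT and 10.98 with ICI and WT1 of 11.42 and 11.57, while SOX17 lay near the bottom of the scale at 4.03 and 3.89. Markers of other cells lay at unequal levels. The leukocyte gene PTPRC was at 3.14 with 4OHT and 3.11 with ICI, the fibroblast gene LUM at 2.51 and 2.51, the endothelial gene KDR at 4.00 and 3.94 and the hepatocyte gene ALB at 4.06 and 3.96. In the same lists THY1 was at 11.50 and 11.52, COL1A1 at 8.31 and 8.25, FAP at 7.90 and 8.09, ENG at 8.38 and 8.41 and CYP3A4 at 8.12 and 8.10. None of the 12 fibroblast, 10 leukocyte, 9 endothelial or 10 hepatocyte markers measured passed the test between the compounds. Of the 12 Müllerian and ovarian markers, 1 passed: EMX2 was lower with 4OHT (8.30 against 8.52), a call lost under 2 other settings. Over all genes tested 3.74% passed, so few or no calls would be seen in lists of this size, and these counts say little about the markers. The deposited values carry no detection calls, so a low level cannot be told from background.

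Of 11963 genes tested, 448 (3.74% of all) passed an adjusted p of 0.05 in limma between the compounds, 202 higher (1.69%) and 246 lower (2.06%) with 4OHT than with ICI. The higher side held the larger differences: the heat shock gene HSPA6, at 3.43-fold, led it, followed by immediate early transcription factors (FOSB, EGR1, EGR3, NR4A3, FOS) and by cytokines and survival genes controlled by NF-kB (BCL2A1, CCL20, CXCL2). With 1 probe set a gene, the lower side reached a log2 difference of -0.60, for VAV3, and included developmental signalling genes (DACT1, GAS1, FZD2, BMP4, FZD7) and, by smaller amounts, genes of mitosis. For genes in this comparison, rose and fell mean higher and lower with 4OHT than with ICI, not against vehicle. The median difference over all genes was -0.02 and the median standard error (SE) 0.06. The 4 arrays of each compound did not overlap for 408 of the 448 called genes, against 11.6% of all genes tested. Nor did they for 978 of the 11515 genes not called. The calls rest on differences between these same arrays, so the lack of overlap gives them no separate support. At an unadjusted p of 0.05, 2319 genes passed, where chance would give 598.

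The size of these counts depended on single arrays and on how the spread was estimated, while the called genes' directions held in the settings in which they were tested. The count fell to 220 without ICI replicate A, 288 without ICI replicate C, 280 without 4OHT replicate B and 258 without 4OHT replicate C. It was 107 when the spread came from the 8 arrays alone and not from all 28 PEO1 arrays. The split also moved: 45.1% of the calls were higher with 4OHT in the values as deposited, 57.9% after quantile normalization (234 higher and 170 lower), 29.1% with dim genes left out (173 and 422) and 69.2% with the 8 arrays alone (74 and 33).

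**Figure D1:**
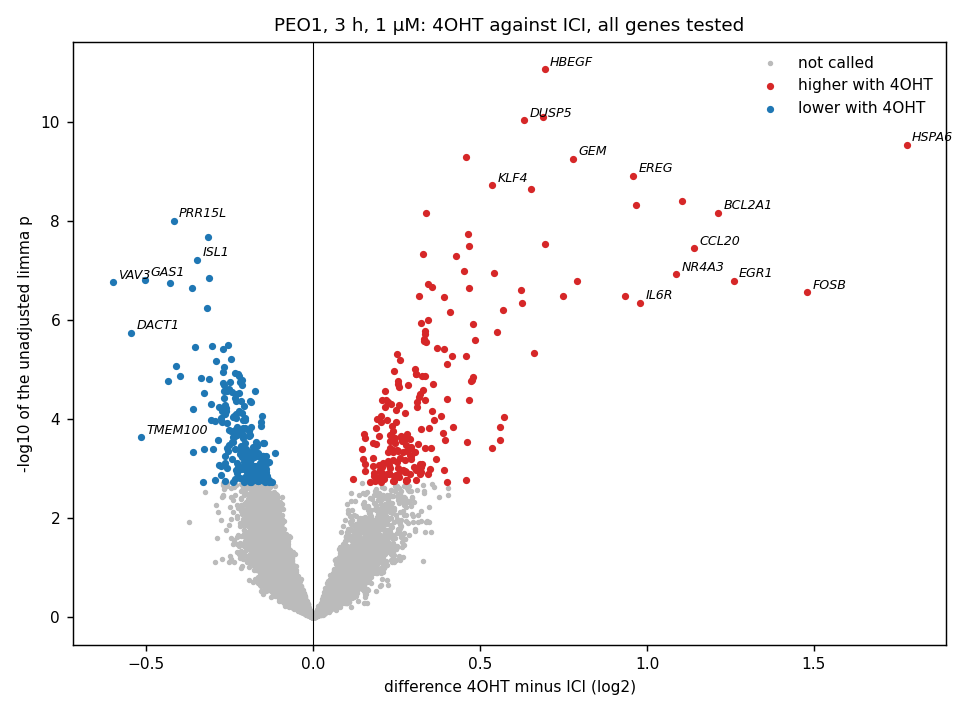
Difference between 4OHT and ICI in PEO1 (log2, horizontal axis) against the strength of the limma test (-log10 of the unadjusted p, vertical axis) for all 11963 genes. Red points are the 202 genes called higher and blue points the 246 called lower with 4OHT; the red points extend to 1.78 and the blue points to -0.60.

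HSPA6, an inducible chaperone of the HSP70 family, stood at 8.81, 9.33, 8.40 and 8.14 on 4OHT arrays A to D and at 6.97, 6.91, 6.78 and 6.90 on the ICI arrays. Every 4OHT array lay above every ICI array, and the ICI arrays overlapped the vehicle arrays (6.84 to 7.30). Its near-identical copy HSPA7 is not distinguished here. The log2 difference was 1.78 ± 0.18 (SE, n = 4 arrays each, spread from all 28 PEO1 arrays, adjusted p = 8.7e-07 in limma). With the spread from the 8 arrays alone, the adjusted p in limma was 0.0030. Another HSPA6 probe set gave 1.08 (adjusted p = 4.6e-06). The gene had little company in its family. Of 17 heat shock and chaperone genes, HSPA6 and HSPB8 (0.29) rose and none fell, against 1.69% and 2.06% of all genes. The median of the list was -0.01. HSPB8 lost its call without ICI replicate A, C or D or 4OHT replicate B or D.

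The immediate early genes, which are switched on within minutes to hours of a stimulus without new protein synthesis, gave the most calls of any list. Of 27 measured, 15 rose and none fell, and 25 lay above 0. Over all 11963 genes, 1.69% were called higher, 2.06% were called lower and 5131 lay above 0. The list's median difference was 0.33 against -0.02 over all genes. FOSB, which forms AP-1 with JUN proteins, measured 7.84, 8.44, 7.34 and 7.39 with 4OHT and 6.27, 6.30, 6.38 and 6.15 with ICI, a difference of 1.48 ± 0.21 (SE). EGR1, a zinc finger factor downstream of growth factor signalling, measured 8.49, 9.07, 8.18 and 8.10 against 7.19, 7.11, 7.33 and 7.17, a difference of 1.26 ± 0.18 (SE), or 0.66 on another probe set (adjusted p = 0.011). In both genes the groups were apart and 4OHT replicate B was the highest array. NR4A3, an orphan nuclear receptor, was also highest on replicate B, with 6.85, 7.96, 7.27 and 6.84 against 6.22, 6.01, 6.18 and 6.18. Its difference was 1.09, and its other probe sets gave 0.76 (adjusted p = 0.00025) and 0.22 (adjusted p = 0.37). For EGR3 the 4OHT arrays ranged from 6.08 to 6.62 and the ICI arrays from 5.16 to 5.31, and for FOS from 7.80 to 8.58 and from 7.13 to 7.23. The stress-induced factor ATF3 rose by 0.79 and the pluripotency and differentiation factor KLF4 by 0.53. MYC was higher by 0.34, while lying below vehicle with both compounds. The members that did not pass included JUN (0.14), IER2 (0.05) and JUNB (-0.16), so the difference did not extend over the whole list. The list's mean was 9.04 to 9.36 on the 4OHT arrays, with replicate B highest, and 8.70 to 8.75 on the ICI arrays. With each of the 8 arrays left out in turn, 14 or 15 members were called.

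Genes under NF-kB, the transcription factor of inflammatory and survival signals, moved the same way. Of 24 measured, 12 rose and none fell, against 1.69% and 2.06% of all genes, and the list's median was 0.32. BCL2A1, an anti-apoptotic BCL2 relative, stood at 7.80, 8.22, 7.64 and 7.59 with 4OHT and at 6.66, 6.64, 6.52 and 6.58 with ICI. The difference was 1.21 ± 0.14 (SE; adjusted p = 6.3e-06), with all 4OHT arrays above all ICI arrays. CCL20, a chemokine for lymphocytes and dendritic cells, gave 6.44, 7.06, 7.62 and 6.86 against 5.78, 5.93, 5.92 and 5.79, and here replicate C was the highest. The neutrophil chemokines followed, with CXCL2 at 0.97 ± 0.11 (SE), CXCL3 at 0.75 ± 0.11 and CXCL1 at 0.47 ± 0.06. CXCL2 ranged from 8.86 to 9.66 with 4OHT and from 8.05 to 8.35 with ICI. CXCL8, another neutrophil chemokine, rose by 0.62. Smaller rises were those of the adhesion gene ICAM1 (0.39), of the pathway's own subunits NFKB2 (0.35) and NFKB1 (0.33), and of its inhibitor TNFAIP3 (0.34). The inhibitor NFKBIA, a standard early target, was at -0.01 and did not pass. IL6R, which encodes the interleukin 6 receptor and was in none of the lists, measured 5.90, 6.53, 6.24 and 5.74 against 5.16, 5.17, 5.28 and 4.89, although its other probe set showed 0.20 (adjusted p = 0.24).

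Promoters of leading members are shown with their matches to a set of response element motifs. The windows are the 150 bases before the RefSeq start on GRCh38.p14, read in the direction of the gene, with matches to the searched motifs in capitals. They are FOSB at chr19:45467846-45467995 (plus strand), EGR1 at chr5:138465329-138465478 (plus strand), CCL20 at chr2:227813692-227813841 (plus strand), CXCL2 at chr4:74099196-74099345 (minus strand), DUSP1 at chr5:172771196-172771345 (minus strand) and HSPA6 at chr1:161524390-161524539 (plus strand).
FOSB: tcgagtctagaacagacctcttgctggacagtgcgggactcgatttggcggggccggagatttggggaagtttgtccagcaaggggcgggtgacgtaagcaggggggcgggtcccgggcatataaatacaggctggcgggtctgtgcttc
EGR1: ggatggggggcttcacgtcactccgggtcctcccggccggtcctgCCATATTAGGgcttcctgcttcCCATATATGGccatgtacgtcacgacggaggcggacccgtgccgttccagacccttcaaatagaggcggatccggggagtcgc
CCL20: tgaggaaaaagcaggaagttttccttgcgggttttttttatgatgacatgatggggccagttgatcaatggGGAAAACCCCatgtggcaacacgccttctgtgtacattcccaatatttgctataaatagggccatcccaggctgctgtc
CXCL2: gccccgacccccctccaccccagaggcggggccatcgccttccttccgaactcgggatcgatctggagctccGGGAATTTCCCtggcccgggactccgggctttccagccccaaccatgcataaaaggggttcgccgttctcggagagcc
DUSP1: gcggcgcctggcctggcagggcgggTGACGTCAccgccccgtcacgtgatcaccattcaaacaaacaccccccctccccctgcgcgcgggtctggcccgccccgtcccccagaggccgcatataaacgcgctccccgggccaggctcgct
HSPA6: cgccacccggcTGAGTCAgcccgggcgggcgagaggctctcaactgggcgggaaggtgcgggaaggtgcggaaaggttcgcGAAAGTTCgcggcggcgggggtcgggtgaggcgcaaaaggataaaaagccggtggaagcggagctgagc
The capitals mark 2 CArG boxes (the serum response factor motif) in EGR1, 105 to 96 and 83 to 74 bases before the start. In CCL20 they mark an NF-kB motif 79 to 70 bases before the start, and in CXCL2 a pair of overlapping NF-kB matches, one per strand, between 78 and 68 bases before it. DUSP1 held the cAMP response element TGACGTCA, 125 to 118 bases before the start. HSPA6 held an AP-1 match (TGANTCA) that begins 139 bases before the start and a heat shock match (GAANNTTC) 69 to 62 bases before it. FOSB held no match, nor did BCL2A1 and GAS1, whose windows are not shown.

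Across the promoter table, which held 9563 of the genes tested and 357 of the 448 called, the same motifs were counted in the 250 bases before the start on both strands. The NF-kB motif was present in 12.2% of 156 promoters of genes called higher, 4.48% of 201 called lower, 5.88% of those tested and 5.21% of all 35116 promoters. The cAMP response element was present in 5.77%, 3.98%, 2.79% and 1.65% of the same sets, and the AP-1 motif in 7.69%, 3.98%, 4.67% and 6.57%. The heat shock motif was found in 7.05%, 6.97%, 4.43% and 5.78%, and the CArG box in 1.92%, 0.50%, 1.21% and 1.16%. The full estrogen response element, GGTCANNNTGACC, was found in 14 of the 35116 promoters (0.04%) and in no promoter of a called gene. A match describes the letters of a window and no binding was measured.

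**Figure D2:**
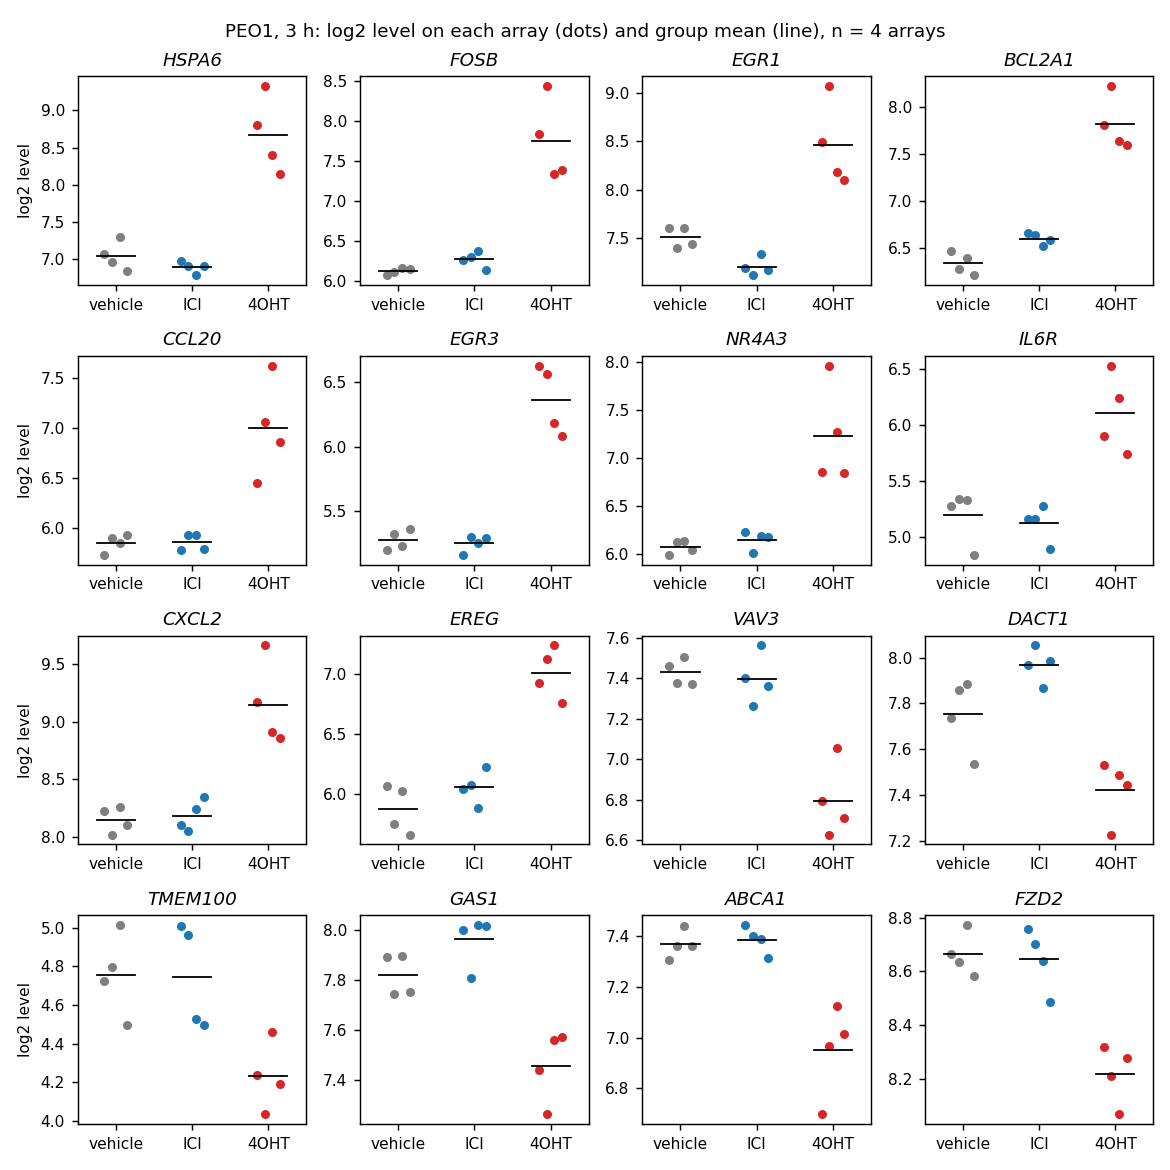
Level of 16 genes (log2, vertical axes) on each PEO1 array after 3 h of vehicle, ICI or 4OHT, with 4 dots per group for replicates A to D and a line at the group mean. The first 10 panels are the genes with the largest rises and the last 6 those with the largest falls; in every panel the 4OHT dots lie apart from the ICI dots.

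Negative feedback genes of the MAP kinase pathway, which are induced by the kinase activity they then restrain, also rose in part. Of 18 measured, 6 rose and none fell, against 1.69% and 2.06% of all genes, and the list's median was 0.10. The phosphatase DUSP5 stood at 10.34, 10.56, 10.33 and 10.22 with 4OHT and at 9.68, 9.71, 9.66 and 9.86 with ICI. Its difference was 0.63 ± 0.06 (SE; adjusted p = 3.7e-07), and the groups did not overlap. DUSP1 rose by 0.54 (0.26 on another probe set), PHLDA1 by 0.48, DUSP4 by 0.47 and TRIB1 by 0.46, whereas DUSP6 (0.09), SPRY2 (-0.01) and ETV4 (-0.00) did not pass. EREG, a ligand of the EGF receptor that was in none of the lists, measured 6.92, 7.12, 7.24 and 6.76 with 4OHT against 6.04, 6.07, 5.88 and 6.23 with ICI. HBEGF, another such ligand, named after its values were seen because it had the smallest adjusted p of all genes (1.0e-07), measured 10.86, 10.90, 10.96 and 10.69 against 10.16, 10.14, 10.10 and 10.24. The GTPase GEM rose by 0.78 ± 0.08 (SE) and the thiamine transporter SLC19A2 by 0.70 ± 0.09.

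The genes lower with 4OHT changed by less. VAV3 measured 6.79, 6.63, 7.06 and 6.71 with 4OHT and 7.40, 7.26, 7.56 and 7.36 with ICI. The groups did not overlap and the difference was -0.60 ± 0.09 (SE; adjusted p = 6.9e-05); its other probe set gave -0.29 (adjusted p = 0.10). DACT1, a modulator of WNT and TGF-beta signalling, measured 7.53, 7.23, 7.49 and 7.44 against 7.97, 8.05, 7.87 and 7.98. GAS1, a hedgehog co-receptor, measured 7.44, 7.26, 7.56 and 7.57 against 8.00, 7.81, 8.02 and 8.02, while its other probe set did not pass (0.03, adjusted p = 0.92). The WNT receptors FZD2 and FZD7 fell by 0.43 and 0.40, the cholesterol exporter ABCA1 by 0.44 and the chemokine receptor CXCR4 by 0.36. Another probe set of CXCR4 gave -0.66 (adjusted p = 2.4e-06), beyond the value of VAV3, while another set of FZD7 gave -0.21. The other ABCA1 sets gave -0.35, which passed, and -0.18, which did not (adjusted p = 0.33). PRR15L measured 7.75, 7.73, 7.75 and 7.73 against 8.22, 8.22, 8.23 and 7.97, so the 4OHT arrays were almost equal and ICI replicate D alone was lower than its group. TMEM100 (-0.52) and the dopamine receptor DRD1 (-0.36) were the least certain of the 15 leading genes: TMEM100 lost its call without ICI replicate A, ICI replicate B or 4OHT replicate B (differences of -0.43, -0.44 and -0.45), and DRD1 without ICI replicate B (-0.28) or 4OHT replicate B, C or D (-0.34, -0.36 and -0.33).

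Members of the BMP and SMAD pathway differed in both directions. Of 16 measured, 2 were higher and 4 lower with 4OHT, with a median of -0.06. Over all genes, 1.69% were called higher and 2.06% lower, and the median was -0.02. The ligand BMP2 was higher with 4OHT than with ICI by 0.42 ± 0.07 (SE) and the receptor BMPR2 by 0.32. BMP2 was at 0.06 with 4OHT and -0.36 with ICI against vehicle. The ligand BMP4 was lower with 4OHT, at -0.41 ± 0.07, as were the inhibitory SMAD7 (-0.34) and SMAD6 (-0.26) and ID2, a target that blocks differentiation factors (-0.28). The other 3 probe sets of SMAD6 did not pass (-0.21, -0.01 and 0.05). ID1 (-0.07) and ID3 (-0.15), the standard BMP targets, did not pass. The higher members numbered 1 without ICI replicate C or D or 4OHT replicate A or C, and from the 8 arrays alone 0 were higher and 2 lower.

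All 26 genes of mitosis measured lay below 0, with a median of -0.15, and 8 of them fell. Over all 11963 genes, 6832 lay below 0, 2.06% were called lower and the median was -0.02. The kinase AURKA measured 10.97, 10.87, 11.05 and 11.03 with 4OHT and 11.22, 11.22, 11.23 and 11.20 with ICI, a difference of -0.24 ± 0.04 (SE; adjusted p = 0.0019). The proliferation marker MKI67 fell by 0.25, and the kinesins CENPE, KIF2C and KIF20A by 0.26, 0.24 and 0.22. PLK1 (-0.08) and CCNB1 (-0.11) did not pass. The list's mean was 10.32 to 10.47 on the 4OHT arrays and 10.56 to 10.57 on the ICI arrays. With single arrays left out the count ran from 5 (without 4OHT replicate B or C) to 11 (without 4OHT replicate A), and from the 8 arrays alone only 1 member was called, while the median was -0.11 to -0.17 in all of these settings and after renormalization. Genes of G1/S and DNA replication shifted less, with a median of -0.08 over 25 genes and lower levels of ORC1 (-0.26) and RRM1 (-0.17). RRM1 lost its call without ICI replicate A, C or D or 4OHT replicate B or C and after quantile normalization, and its other probe set did not pass (-0.09, adjusted p = 0.66). In bulk samples, fewer cells in a phase and less RNA per cell cannot be told apart.

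**Figure D3:**
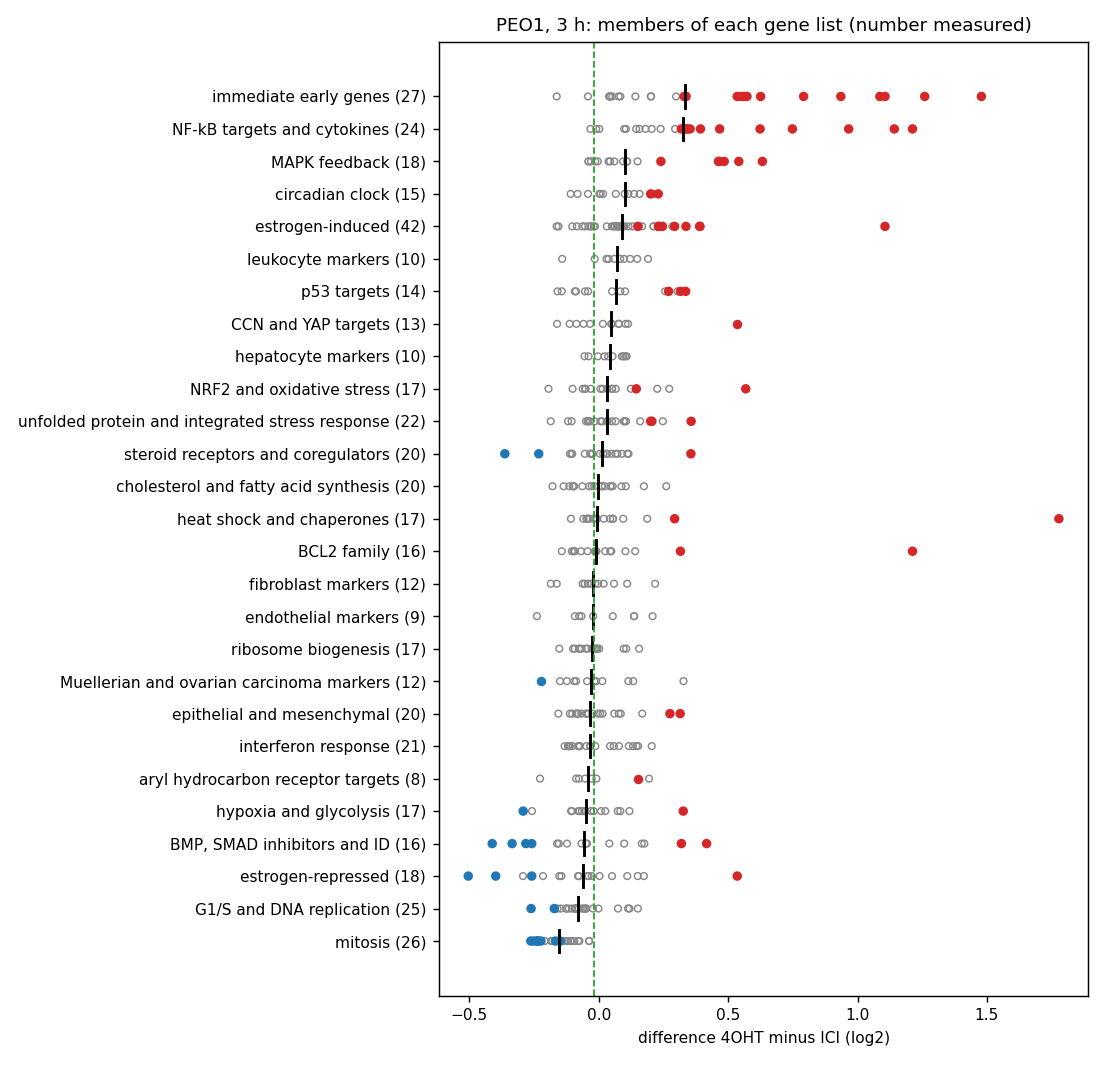
Difference between 4OHT and ICI in PEO1 (log2) for every measured member of 27 gene lists, 1 row per list with the number measured in brackets. Filled points passed the test (red higher, blue lower with 4OHT), open points did not, black bars are list medians and the green dashed line is the median of all genes (-0.02); immediate early genes (0.33) and NF-kB targets (0.32) lie furthest right and mitosis (-0.15) furthest left.

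Estrogen-responsive genes separated into those on which the compounds matched and those on which they differed. GREB1, a direct receptor target, measured 4.95, 4.78, 5.03 and 4.97 with 4OHT and 5.15, 4.98, 5.03 and 4.82 with ICI, and 5.81, 5.53, 6.01 and 5.72 with vehicle. Both antagonist groups lay below vehicle and overlapped each other. Their difference was -0.06, with a 95% interval of -0.25 to 0.13. The GREB1 levels were low with both compounds, where a low level cannot be told from background. COL3A1, at 5.16 with 4OHT and 5.14 with ICI, lay at percentile 13.1 of the genes tested. ESR1 itself was at 11.16 to 11.22 with 4OHT and 11.15 to 11.30 with ICI, a difference of -0.05 with an interval of -0.13 to 0.02, and PGR, the progesterone receptor gene, stood at 3.09 to 3.39 and 3.22 to 3.37, close to the bottom of the scale. These RNA levels carry no information on receptor protein, which fulvestrant is known to deplete. IGFBP3, a secreted binding protein for insulin-like growth factors, fell by 0.27 ± 0.05 (SE; adjusted p = 0.0025), with 11.83 to 12.10 against 12.20 to 12.27.

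Over all genes, 1.69% were called higher and 2.06% lower with 4OHT than with ICI, with a median of -0.02. Of 42 estrogen-induced genes measured, 9 were higher with 4OHT than with ICI, none was lower, and the median was 0.09. Besides EGR3 and MYC these were the potassium channel genes KCNF1 (0.39) and KCNK5 (0.23), IL12A (0.39), HSPB8 (0.29), STC2 (0.25), the cytokine signalling inhibitor CISH (0.23) and TIPARP (0.15). Of 18 estrogen-repressed genes, KLF4 was higher and GAS1, FZD7 and SMAD6 were lower. The estrogen-induced count fell to 6 without ICI replicate A, C or D and was 4 from the 8 arrays alone, and 5 repressed genes were lower without 4OHT replicate A. Against vehicle, 4 of the 42 estrogen-induced genes were higher and 6 lower with 4OHT (1.92% and 4.83% of all genes), with a median of 0.01. With ICI, 0 were higher and 5 lower (0.0167% and 0.117% of all genes), with a median of -0.06. Between the compounds in PEO4, 3 were higher and 1 lower with 4OHT, with a median of -0.03. In the list of 20 steroid receptors and coregulators, 1 gene rose and 2 fell. FOXA1, a pioneer factor for the receptor, rose by 0.36 ± 0.08 (SE). The mineralocorticoid receptor NR3C2 fell by 0.36 ± 0.05, and the coactivator NCOA2 fell by 0.23. The other 3 NCOA2 probe sets did not pass (-0.02, -0.00 and 0.11), and its call was lost without ICI replicate A, C or D or 4OHT replicate B.

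Each compound was also set against the 4 vehicle arrays. Both comparisons share those arrays, and each shares its treated arrays with the direct comparison, so their values are given side by side and are not independent of one another. Against vehicle, 808 genes (6.75%) passed with 4OHT, 230 higher (1.92%) and 578 lower (4.83%), and 16 (0.134%) passed with ICI, 2 higher (0.0167%) and 14 lower (0.117%). For most of the leading genes the 4OHT side carried the difference. HSPA6 was at 1.63 against vehicle with 4OHT and -0.15 with ICI, FOSB at 1.62 and 0.15, BCL2A1 at 1.47 and 0.26, CCL20 at 1.14 and 0.00, and CXCL2 at 1.00 and 0.03. The same held for VAV3 at -0.63 and -0.03 and for AURKA at -0.29 and -0.05. At another set of genes the ICI value lay on the opposite side of vehicle: EGR1 was at 0.95 with 4OHT and -0.31 with ICI, FOS at 0.52 and -0.41, SLC19A2 at 0.39 and -0.31, KLF4 at 0.26 and -0.28, and DACT1 at -0.33 and 0.21. None of these ICI values passed the test against vehicle (adjusted p from 0.057 for KLF4 to 1), and each of the 4OHT values did.

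At a further set the ICI value lay further from vehicle than the 4OHT value. MYC, the growth-promoting transcription factor, measured 12.22, 12.20, 12.25 and 12.26 with vehicle, 12.16, 12.16, 12.00 and 12.05 with 4OHT, and 11.68, 11.81, 11.71 and 11.83 with ICI. All 3 groups were apart, in that order, with falls from vehicle of 0.14 with 4OHT (adjusted p = 0.032) and 0.48 with ICI (adjusted p = 5.8e-08). CISH lay below vehicle by 0.38 with 4OHT and 0.61 with ICI, and both values passed. KCNF1 was at 0.09 with 4OHT and -0.30 with ICI, and BMP2 at 0.06 and -0.36; in both genes the ICI value passed and the 4OHT value did not. SMAD7 (-0.08 and 0.25) and the protocadherin PCDH9 (0.07 and 0.37) differed in the other direction, and of these ICI values PCDH9's passed (adjusted p = 0.031) and SMAD7's did not (0.18).

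Genes that changed alike with both compounds were sought over all genes tested, on the 4OHT, ICI and vehicle arrays. They had to be called against vehicle with both compounds, in whichever direction. The 95% interval of the difference between the compounds had to lie inside a margin of 0.32 either side of 0. The search was limited by the 16 genes called against vehicle with ICI, of which 14 were lower and 2 higher. DKK1 was called higher than vehicle with both compounds (0.43 with 4OHT and 0.28 with ICI). It differed by 0.15 between the compounds but was not among the 5 largest changes. The 5 genes with the largest summed absolute change were all lower than vehicle with both compounds. They were GREB1 (-0.83 with 4OHT and -0.77 with ICI), CBLN1 (-0.48 and -0.62), TRPC6 (-0.40 and -0.42), ID4 (-0.28 and -0.45) and PELI1 (-0.35 and -0.37). The intervals of the difference between the compounds were -0.12 to 0.17 for TRPC6, -0.13 to 0.18 for PELI1, 0.01 to 0.29 for CBLN1 and 0.04 to 0.30 for ID4. For the last 2 the interval leaves out 0 although the adjusted p did not pass (0.24 and 0.14). Over all genes, 10576 (88.4%) had an interval between the compounds inside this margin. Of the 20 cholesterol and fatty acid synthesis genes 18 did (90%), and of 17 ribosome biogenesis genes all 17 (100%). Neither list had a called member, where 3.74% of all genes were called. For lists of this size these counts lie near the shares of all genes and do not set them apart.

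**Figure D4:**
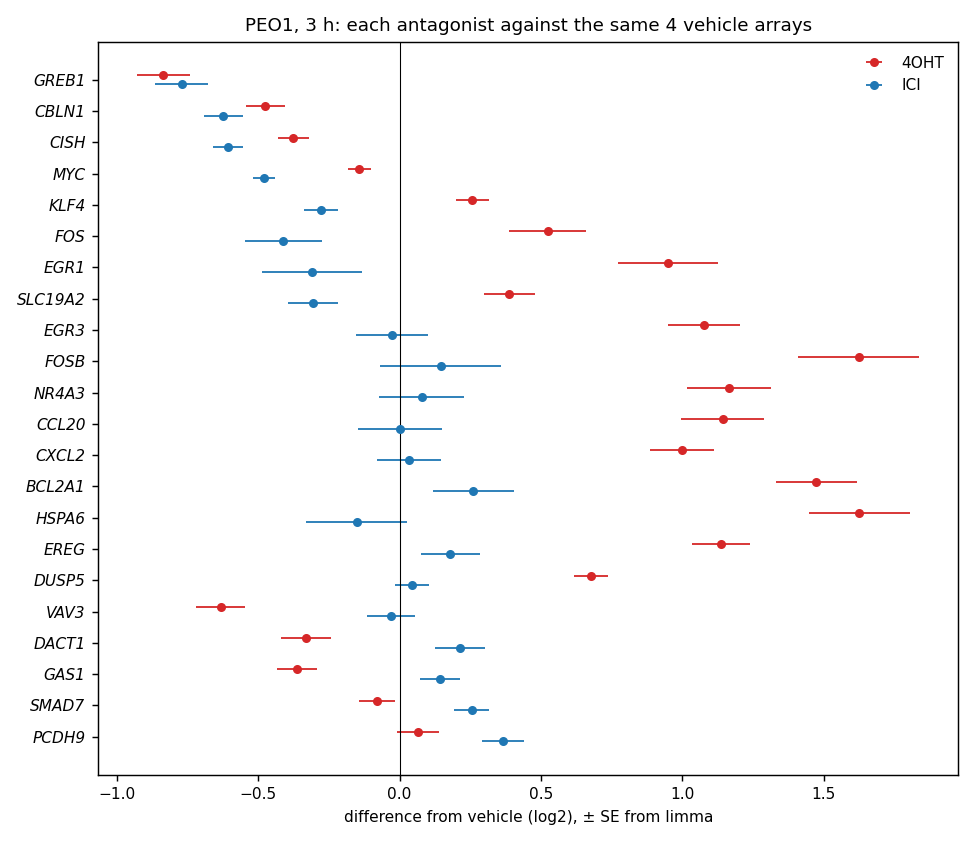
Difference from vehicle (log2, horizontal axis) with 4OHT (red) and ICI (blue) in PEO1 for 22 genes, with limma standard errors as bars; both compounds share the 4 vehicle arrays. GREB1 is at -0.83 and -0.77, HSPA6 at 1.63 and -0.15, and MYC at -0.14 and -0.48.

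The same pair of compounds was compared on arrays not shared with the comparison above. In PEO1 with 1 nM E2 added, 501 genes (4.19%) passed between 4OHT and ICI, 185 higher (1.55%) and 316 lower (2.64%). Of the 202 genes called higher without E2, 103 were called higher with E2 (51.0% of the 202 and 55.7% of the 185) and 195 lay above 0, where 43.3% of all genes did. Of the 246 called lower, 91 were called lower with E2 (37.0% of the 246 and 28.8% of the 316) and 240 lay below 0, against 56.7% of all genes. None was called in the opposite direction. HSPA6 measured 1.79 with E2 against 1.78 without, FOSB 1.34 against 1.48, and VAV3 -0.44 against -0.60. The test of the difference between the comparisons called 0 genes (0%) in limma, with a smallest adjusted p of 0.78; 505 genes passed an unadjusted 0.05, and the count of adjusted calls was 0 under every other setting run. Both comparisons used the variance estimate of the same PEO1 fit, and the E2 count was 89 from the 8 arrays concerned alone. It was 267, 330 and 220 without replicate A, B or C of ICI with E2, and 253, 1042 and 312 without replicate B, C or D of 4OHT with E2.

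In PEO4, 279 genes (2.33%) passed between the compounds, 150 higher (1.254%) and 129 lower (1.08%) with 4OHT. Of the 202 genes called higher in PEO1, 56 were called higher in PEO4 (27.7% of the 202 and 37.3% of the 150) and 147 lay above 0, where 38.2% of all genes did. Of the 246 called lower, 31 were called lower in PEO4 (12.6% of the 246 and 24.0% of the 129) and 200 lay below 0, against 61.8% of all genes. The shared genes included FOSB (1.68), HSPA6 (1.52), IL6R (1.21) and EREG (1.12), and 16 of the 27 immediate early genes rose in PEO4. NAB1 (0.22 in PEO1 and -0.33 in PEO4) and COQ8A (0.15 and -0.23) were the 2 genes called in opposite directions. 1 PEO4 array stood apart: ICI replicate 1 had a beta-actin 3′ minus 5′ difference of 3.41, against 0.52 to 0.92 on the other PEO4 ICI arrays. Without it 200 genes passed in PEO4, 135 higher and 65 lower with 4OHT, and the shared genes numbered 58 higher and 18 lower. The PEO4 count was 552 without ICI replicate 4, 163 without 4OHT replicate 1 and 169 without 4OHT replicate 2.

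The test of the difference between the lines called 53 genes (0.443%), and 40 without that array. It called 33 without PEO1 ICI replicate D, 97 without PEO4 ICI replicate 2 and 24 without PEO4 4OHT replicate 1. In PEO1 the difference was the smaller for RGCC (0.40 in PEO1 and 1.58 in PEO4), the phosphatase DUSP4 (0.47 and 1.36), GEM (0.78 and 1.61) and IER3 (0.63 and 1.24). It was the larger in PEO1 for the GTPase RRAD (0.65 and 0.10), for HMOX1, which degrades heme (0.57 and 0.02), and for the EGR corepressor NAB2 (0.41 and 0.04). The related NAB1 differed in sign between the lines (0.22 and -0.33). TXNIP, an inhibitor of thioredoxin, was lower with 4OHT in both lines and more so in PEO4 (-0.30 and -0.58).

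**Figure D5:**
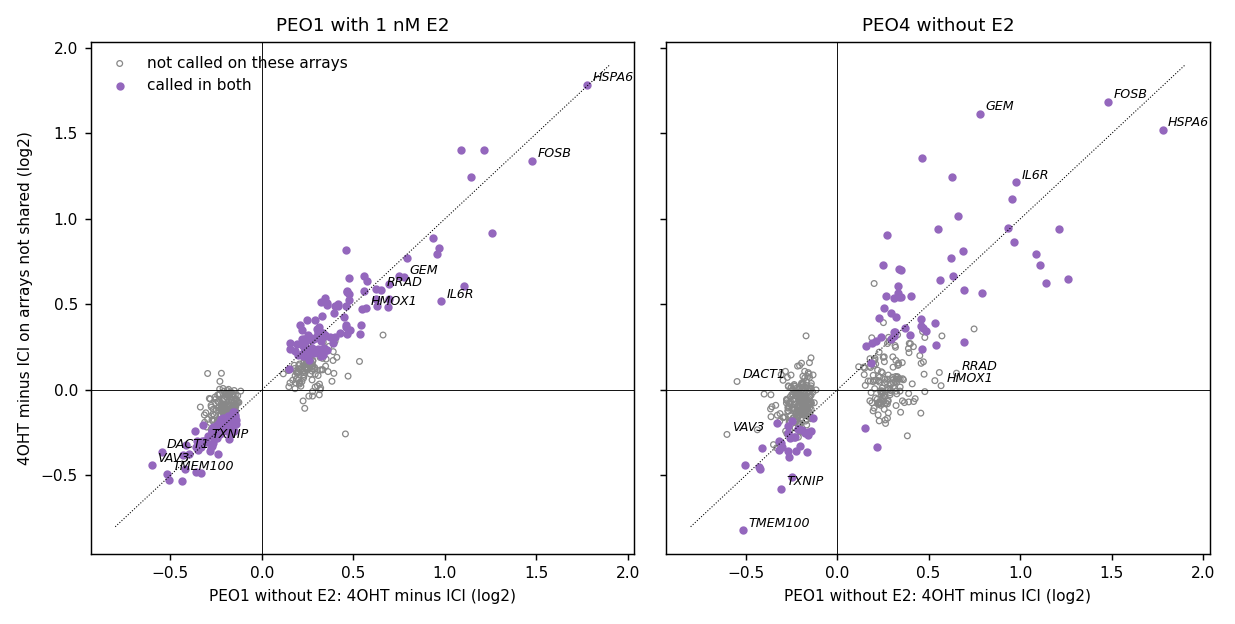
For the 448 genes called in PEO1 without E2, the difference between 4OHT and ICI there (log2, horizontal axes) against the same difference in PEO1 with 1 nM E2 (left) and in PEO4 without E2 (right). Filled points were also called on those arrays and the dotted line marks equal values; HSPA6 and FOSB lie near the line in both panels, while GEM lies above it and RRAD and HMOX1 below it in PEO4.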

How the data were processed

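The series matrix held log2 expression values of 22277 probe sets on 56 Affymetrix arrays, made by the authors with RMA per the submitters' processing notes; the version is not given in the sources used here. No further normalization was applied. Probe sets with 1 gene symbol (19064; 1043 had several, 2108 none, 62 were controls) were reduced to 11963 genes by the highest mean over all arrays, and 19052 symbols matched RefSeq. Differences were fitted in limma 3.58.1 (R 4.3.3) on all 28 PEO1 arrays with 7 group means (21 residual degrees of freedom), and likewise in PEO4, with Benjamini-Hochberg adjustment over all genes at 0.05. The scripts were tested on simulated data. Array letters were not used as pairs.

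Genes were named by rule: the 15 largest rises and the 15 largest falls among called genes, and up to 4 called members per list by adjusted p. ESR1, PGR, GREB1 and IGFBP3 were named too, as were the 5 genes, GREB1 among them, that changed alike with both compounds. Other genes named were chosen after their values were seen. The comparison and the lists were chosen with earlier results of these data known. Alternatives were other normalizations, filters, probe sets, variance models, array weights, a replicate block and leaving out single arrays.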

Additional observations from a re-analysis of the deposited data

Results flagged for a closer look

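Within groups of 4 arrays, 152 group values of named genes were screened for a single array far from its group, and 8 stood apart; chance alone would give about 1 in 20. With 4OHT, CXCL3 was 8.07 on replicate B against 7.30 to 7.43 on the others. With ICI, replicate B was at 7.81 for GAS1 (others 8.00 to 8.02), 9.84 for ISL1 (9.96 to 9.98) and 6.44 for DRD1 (6.08 to 6.13). ICI replicate C was at 8.47 for ATF3 (8.53 on the others) and 7.74 for SNAI2 (7.81 to 7.82), and ICI replicate D at 7.97 for PRR15L (8.22 to 8.23) and 9.94 for DNAJB9 (9.87 to 9.88).

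For 7 named genes the difference between 4OHT and ICI was itself different in PEO1 and PEO4 by limma. The log2 difference in PEO1 minus that in PEO4 was -0.89 for DUSP4, -0.84 for GEM, -0.63 for SNAI2 and -0.60 for DACT1, which was lower with 4OHT in PEO1 (-0.55) and at 0.05 in PEO4. It was 0.54 for HMOX1, 0.46 for KCNF1 and 0.42 for DNAJB9. The calls for SNAI2 and DACT1 were lost with single arrays left out.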

How the results depend on the processing

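Of 69 called genes named by rule, 42 kept their call under every setting in which they were tested. The call was lost under at least 1 setting for 27, and none changed sign. With dim genes left out, 354 of the 448 called genes were tested. FOSB, BCL2A1, CCL20, EGR3, NR4A3, IL6R, EREG, CXCL3 and VAV3 were among the dim genes, so that setting did not test these leading genes. The count of 448 calls was 107 from the 8 arrays alone and 220 to 608 with single arrays left out; the 202 higher calls were 74 and 129 to 225, and the 246 lower calls 33 and 91 to 383, or 422 with dim genes left out. Without 4OHT replicate A, 408 of the 448 remained called, and without ICI replicate A 219. A replicate block on the array letters gave 411 calls, 386 of them shared with the 448; deviations of same-lettered 4OHT and ICI arrays correlated at 0.04, 0.13, -0.09 and 0.21 (A to D), and not every array correlated best with its own letter. The 10576 genes with an interval inside the margin of 0.32 became 6780 with dim genes left out and 16458 over all probe sets, since the number tested changed. With E2, 501 became 802 with array weights, 89 from the groups compared alone and 220 to 1042 with single arrays left out. In PEO4, 279 became 2367, 82 and 163 to 552. The 53 line differences became 823, 9 and 24 to 97. The cause of these shifts was not tested. Differences near 0 changed sign for PGR, TRPC6 and PELI1 with single arrays left out, over -0.067 to 0.034, -0.031 to 0.090 and -0.019 to 0.068, and for TRPC6 after quantile normalization (-0.0026). Of 42 other probe sets of named called genes, 18 were called in the same direction and 0 in the opposite. With 4 arrays a group, precision is limited by their number.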

Other observations

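The 8 lists described here held at most 3 called members each. Over all genes, 1.69% were called higher and 2.06% lower. The list medians ran from 0.10 for the clock genes and 0.07 for the p53 targets to -0.05 for the hypoxia genes. The median over all genes was -0.02. Among 14 p53 targets, the death receptor TNFRSF10B (0.34), the BH3-only gene PMAIP1 (0.32) and the cell cycle inhibitor CDKN1A (0.27) were higher with 4OHT than with ICI, while MDM2 (0.05) and BAX (-0.14) did not pass. Of 22 genes of the unfolded protein and integrated stress responses, the chaperone DNAJB9 (0.36), ASNS (0.21) and HERPUD1 (0.20) were higher, and HSPA5 (0.03), DDIT3 (0.10) and ATF4 (0.01) did not pass. Among 17 oxidative stress genes, HMOX1 (0.57) and TXNRD1 (0.14) were higher. Of 15 clock genes, BMAL1 (0.23) and NFIL3 (0.20) were higher. Of 17 hypoxia genes, VEGFA (0.33) was higher and ADM (-0.29) lower. ZEB1 (0.31) and SNAI2 (0.27), a pair of epithelial-mesenchymal transition factors, were the called members of a list of 20, and TEAD1 (0.53) that of 13 CCN and YAP targets. None of 21 interferon response genes passed in limma. CDKN1A, HERPUD1, NFIL3, BMAL1, TXNRD1, VEGFA, ZEB1, SNAI2 and TEAD1 lost their call with at least 1 array left out, each with the difference on the same side of 0. The other probe sets of VEGFA (0.14 to 0.19) and ZEB1 (0.05 and 0.18) did not pass. Nor did those of TNFRSF10B (0.17 and 0.18), PMAIP1 (0.16), DNAJB9 (0.29) and BMAL1 (0.12).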
